A study of Mus musculus with 21 samples.

Results

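Fc receptors, the proteins by which cells of the immune system bind the constant (Fc) part of antibodies, were followed at the RNA level in dendritic cells (DCs), B cells and T cells of the mouse spleen. The 8 genes were Fcgr1, Fcgr2b, Fcgr3, Fcgr4, Fcer1g, Fcer2a, Fcgrt and Fcrla, and they were read on the 16 probe sets, of 45101 on the Affymetrix array, whose only gene symbol in the platform annotation was one of these 8. The annotation names 18193 genes in all by such probe sets. Of these, 13 probe sets of 7 genes passed a filter on low signal and entered the tests. The one probe set of Fcgr3 did not pass, and its values are given below without a place in the tests.

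The arrays numbered 21, with 3 in each of 7 groups, all of C57BL/6 mice. DCs had been sorted with the antibody 33D1, which binds the CD8-negative splenic DCs with high CD11c, or with DEC205, which marks the CD8-positive ones. Each of these subsets came from untreated wild-type mice (40 to 80 mice in a pool) and from mice that had received an injection of Flt3L melanoma and were killed on days 10 to 12 (20 mice in a pool). The lymphocyte groups were B cells, CD4-bearing T cells and CD8-bearing T cells of untreated wild-type mice (5 to 8 mice in a pool). They are called CD4 and CD8 T cells here. Flt3L is a growth factor that expands DCs, and it reached the mice together with a tumour, so the effects of ligand and tumour cannot be told apart. The pools of a group are not described further in the labels. The p-values rest on the spread between pools of the same group, estimated together over all 7 groups, and this spread may be technical in part.

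Fc receptors fall into classes with opposed or separate functions. Activating receptors for IgG (the products of Fcgr1, Fcgr3 and Fcgr4) signal through the shared γ chain encoded by Fcer1g, whose tyrosine motif recruits the kinase Syk, whereas the product of Fcgr2b carries an inhibitory motif of its own that recruits the phosphatase SHIP-1. The neonatal Fc receptor, encoded by Fcgrt and paired with β2-microglobulin, sorts IgG inside the cell and spares it from degradation. Fcer2a encodes CD23, a low-affinity IgE receptor of lectin type best known from B cells, and Fcrla encodes an Fc receptor-like protein that stays inside B lineage cells. On DCs, these receptors govern the uptake of antibody-bound antigen and the signal that comes with it.

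Genes of the family lie next to each other. In the RefSeq gene table, Fcrla, Fcgr2b, Fcgr4, Fcgr3 and Fcer1g were on chromosome 1, in this order, at places 1, 3, 4, 5 and 13 of the protein-coding genes of that stretch. Fcgr1 was on chromosome 3, Fcgrt on chromosome 7 and Fcer2a on chromosome 8. The promoters of the 4 chromosome 1 members whose signal differed between the wild-type DC subsets are printed because these neighbours went in opposite directions. Each is the 250 bases before the annotated start, from RefSeq on GRCm38.p6, read 5′ to 3′ on the strand of the gene. Fcrla is the window chr1:170927584-170927833 (minus strand), Fcgr2b chr1:170976072-170976321 (minus strand), Fcgr4 chr1:171018676-171018925 (plus strand) and Fcer1g chr1:171234350-171234599 (minus strand). Capitals mark matches, on either strand, to GAGGAA, letters of the kind that the myeloid and B cell factor PU.1 binds.
Fcrla: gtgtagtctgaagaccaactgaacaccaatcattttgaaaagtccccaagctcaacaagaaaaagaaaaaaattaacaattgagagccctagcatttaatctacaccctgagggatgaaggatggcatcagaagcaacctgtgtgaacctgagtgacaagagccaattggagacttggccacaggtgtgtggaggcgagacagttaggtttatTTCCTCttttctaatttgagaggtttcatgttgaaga
Fcgr2b: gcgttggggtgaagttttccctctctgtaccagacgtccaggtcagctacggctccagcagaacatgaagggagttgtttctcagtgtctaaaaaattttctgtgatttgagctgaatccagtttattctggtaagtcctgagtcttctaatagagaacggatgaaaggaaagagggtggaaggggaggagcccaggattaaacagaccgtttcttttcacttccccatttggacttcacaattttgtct
Fcgr4: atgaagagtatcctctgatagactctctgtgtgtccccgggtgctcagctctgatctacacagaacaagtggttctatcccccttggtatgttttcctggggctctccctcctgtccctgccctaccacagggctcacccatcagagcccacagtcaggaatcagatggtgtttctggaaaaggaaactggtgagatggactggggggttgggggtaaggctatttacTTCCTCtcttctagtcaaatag
Fcer1g: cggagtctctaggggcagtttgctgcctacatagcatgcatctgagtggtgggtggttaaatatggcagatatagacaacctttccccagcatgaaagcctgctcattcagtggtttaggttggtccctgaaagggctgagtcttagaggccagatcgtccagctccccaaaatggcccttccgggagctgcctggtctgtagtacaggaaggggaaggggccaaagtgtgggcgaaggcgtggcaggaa
GAGGAA, or TTCCTC on the other strand, was in the windows of 4 of the 8 members (Fcgr1, Fcgr3, Fcgr4 and Fcrla) and in 23.3% of all 32851 RefSeq promoter windows of that length. In Fcrla it stood 37 to 32 bases before the start and in Fcgr4 22 to 17 bases before it. TTCNNNGAA, the letters of a gamma-activated site that STAT factors bind, the same on both strands and not in capitals above, was in Fcgr1 and in 7.02% of all windows. Neither set of letters was in the Fcgr2b or the Fcer1g window, which says only that those letters are not in these 250 bases.

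Signals are in the linear units of the deposited table, whose median was 156.3, and each array had been scaled to the same 2% trimmed mean of 500. Differences are on the log2(signal + 48.6) scale with standard errors from a limma model of all 21 arrays, and a gene is called at a Benjamini-Hochberg adjusted p under 0.05 over the 13284 genes tested. The sorted cells carried the markers of their labels. T cell Cd3e had mean signals of 7748 and 8085 in the T cell groups and at most 110 elsewhere, B cell Cd79a had 29190 in B cells and at most 217 elsewhere, and Ly75, which encodes the DEC205 antigen, had 2973 in wild-type DEC205 DCs against 169 in 33D1 DCs. Not all markers were so confined. Ly75 had 1378 in CD8 and 855 in CD4 T cells. Of the B cell markers, Cd22 had 6105 in wild-type 33D1 DCs. Cd79b had 917 in CD8 against 135 in CD4 T cells, and Cd72 had 1955 against 803. The identity of the lymphocytes needed this look because a free-text label calls them DCs. Arrays of 1 group correlated with r between 0.949 and 0.979 across genes, which are not independent replicates. An array of either DC subset stood apart by genes of the other. Wild-type DEC205 replicate 3 had a Cd4 signal of 400 against 133 and 57.7 on the other arrays of its group, and 33D1 replicate 3 of the Flt3L mice had an Xcr1 signal of 463 against 101 and 100.5. Results that leaving out these arrays moved are given both ways. In sorted populations as in any bulk sample, fewer cells of a type and less RNA per cell cannot be told apart.

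**Figure D1:**
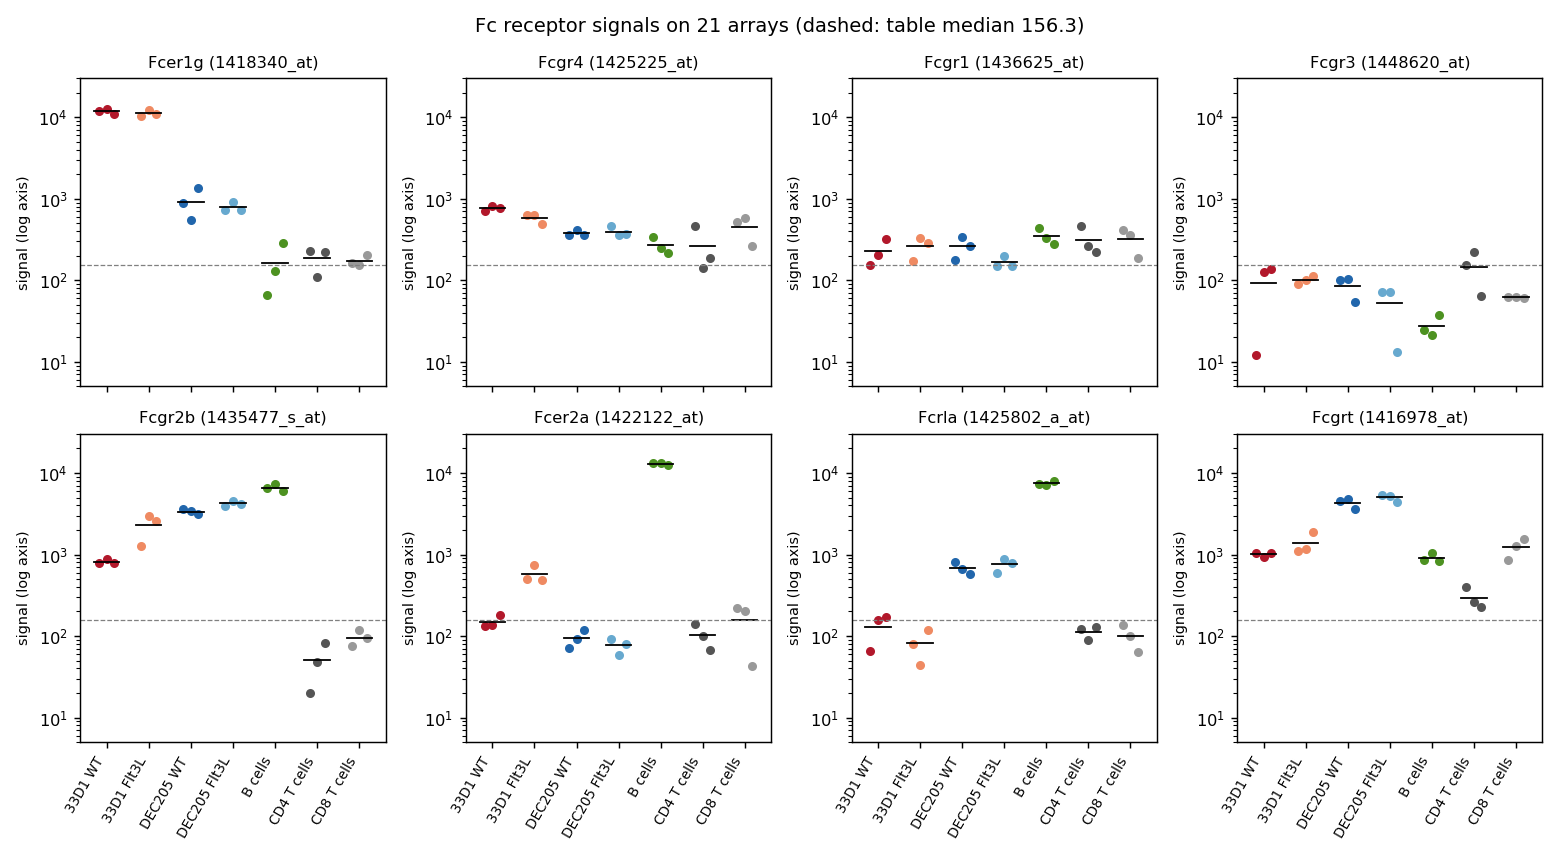
Signal of the representative probe set of each of the 8 genes (for Fcgr3, its one probe set) on the 21 arrays, on a log axis, by group; points are arrays, short bars are means of 3, and the dashed line is the table median of 156.3. Fcer1g is high in both 33D1 groups, Fcgrt in both DEC205 groups, Fcer2a and Fcrla in B cells, and Fcgr3 stays near or under the dashed line in all 7 groups.

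The wild-type DC subsets differed in the levels of Fc receptor RNAs. Fcer1g, Fcgr4, Fcgr2b and Fcgrt were above the table median on all arrays of both subsets. In 33D1 DCs, the γ chain Fcer1g was 12.7-fold and the activating receptor Fcgr4 2.03-fold higher than in DEC205 DCs. In DEC205 DCs, the inhibitory receptor Fcgr2b was 4.11-fold, the neonatal receptor Fcgrt 4.29-fold and Fcrla at least 4.36-fold higher. Where the lower group had a mean under the table median of 156.3, a ratio is given as at least the higher mean over that median. With limma, 5 of the 7 genes tested were called, 2 of them higher in 33D1 DCs and 3 lower, and 23.1% of all genes tested were called in this comparison. The other 2, Fcgr1 and Fcer2a, were not called.

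Fcer1g encodes the γ chain without which the activating receptors do not reach the cell surface. Its signals were 11791, 12722 and 10933 in wild-type 33D1 DCs and 885, 548 and 1349 in wild-type DEC205 DCs. The highest DEC205 value was that of replicate 3, the array with more Cd4 signal, and it was still far below every 33D1 array. The log2 difference was 3.69 ± 0.30 (adjusted p = 3.97e-09), and without that array it was 3.99 (adjusted p = 4.08e-09). Fcer1g is also a subunit of the mast cell IgE receptor and is found in macrophages, so markers of both were read beside it. Of 7 mast cell and basophil markers with a probe set, the summed signal was 556 to 860 in wild-type 33D1 and 300 to 669 in wild-type DEC205 DCs, and 724 to 776 against 355 to 436 in the Flt3L mice. Hdc, the enzyme that makes histamine, was 1 of 3 of them tested and was called higher in 33D1 DCs. In wild-type mice its means were 167.7 against 24.5 (1.53 ± 0.29, adjusted p = 0.000342). In Flt3L mice they were 248.1 against 10.2 (2.33 ± 0.29, adjusted p = 2.05e-06). The wild-type 33D1 mean was itself near the table median. In DEC205 DCs, B cells and T cells the Hdc means were far under that median. Hdc had thus passed the filter through 33D1 arrays, and its calls follow in part from how it entered. The α and β chains of the mast cell IgE receptor, Fcer1a and Ms4a2, had means of 92.9 and 98.9 in wild-type 33D1 DCs and of 91.7 and 40.9 in wild-type DEC205 DCs. The summed signal of 13 macrophage and monocyte markers was 18731 to 25341 in wild-type 33D1 and 13532 to 18389 in wild-type DEC205 DCs. Among the 9 of them tested, 2 were called higher (Adgre1, which encodes F4/80, and Csf1r, the receptor for colony stimulating factor 1) and 3 lower (Hmox1, Lyz2 and Vcam1). Of 7 neutrophil markers with a probe set, the summed signal was 1839 to 3080 in wild-type 33D1 and 850 to 2618 in wild-type DEC205 DCs. Mmp9 was called higher in 33D1 DCs, with means of 1455 against 177.5 in wild-type mice (2.73 ± 0.29, adjusted p = 2.17e-07). In Flt3L mice it was called too, at 807.6 against 79.2 (2.77 ± 0.29, adjusted p = 1.86e-07). Elane, Mpo, Ltf, S100a8 and S100a9 were not called in either. The part of any of these cell types in the Fcer1g difference was not tested.

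Fcgr4 encodes the activating receptor for IgG2a and IgG2b and is one of the partners of the γ chain. Its signals were 718, 818 and 770.4 in wild-type 33D1 DCs and 358, 416 and 362 in wild-type DEC205 DCs. The groups did not overlap, and the log2 difference was 0.94 ± 0.28 (adjusted p = 0.0174). The standard error is pooled over all 7 groups. The SD of the log2 values was 0.088 in these 33D1 and 0.107 in these DEC205 DCs, but 0.749 in CD4 and 0.538 in CD8 T cells. Over 17 settings the limma adjusted p ran from 0.000748 to 0.0594. The call was thus close to its threshold. It was lost without 33D1 replicate 2 (0.89, adjusted p = 0.0594), without DEC205 replicate 1 (0.90, adjusted p = 0.0552) and without DEC205 replicate 3 (0.91, adjusted p = 0.0522), each of wild-type mice. Over all 7 groups Fcgr4 means ran from 265 in CD4 T cells to 769 in wild-type 33D1 DCs, and neighbours in that order were not called against each other.

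The remaining activating receptors gave little signal. Fcgr1, the high-affinity IgG receptor, had signals between 149.7 and 468 on its tested probe set. Its highest mean was 348 ± 79.9 (SD, n = 3 arrays) in B cells and its lowest 167 ± 28.7 in DEC205 DCs of Flt3L mice, and neighbours in the order of the groups overlapped and were not called against each other. Its log2 difference between the wild-type subsets was -0.18 ± 0.31 (adjusted p = 0.762). A second Fcgr1 probe set did not pass the filter, with 14.7 to 166.5 over the 21 arrays. Fcgr3, the low-affinity activating IgG receptor, had 12.3, 128 and 138 in wild-type 33D1 DCs and 100.5, 103 and 53.5 in wild-type DEC205 DCs. Its signal passed the table median on only 1 array of the 21, CD4 T cell replicate 2 at 220.4, and in a fit without the filter it was called in 0 of 11 contrasts (wild-type subset difference -0.07 ± 0.37, adjusted p = 0.961), with 2 of them at an unadjusted p under 0.05. In wild-type DCs Fcgr3 lay under the table median on all 6 arrays.

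Fcgr2b, the inhibitory IgG receptor, showed the reverse order to Fcer1g. Its signals were 792, 888 and 779 in wild-type 33D1 DCs and 3597, 3404 and 3097 in wild-type DEC205 DCs. Every DEC205 array was above every 33D1 array. The log2 difference of 33D1 minus DEC205 was -1.97 ± 0.23 (adjusted p = 9.33e-07). All 4 of its probe sets that passed the filter were called lower in 33D1 DCs when each was tested on its own, with differences from -2.25 ± 0.40 to -0.90 ± 0.29 over 23946 probe sets.

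Fcgrt, the neonatal receptor that diverts IgG from lysosomes, was also higher in DEC205 DCs. The wild-type values were 1036, 924 and 1051 in 33D1 DCs and 4499.8, 4841 and 3588 in DEC205 DCs, with no overlap. The log2 difference was -2.04 ± 0.21 (adjusted p = 1.33e-07). B2m, whose product is the light chain of this receptor, had means of 27670 in 33D1 and 28300 in DEC205 DCs (difference -0.02 ± 0.17, adjusted p = 0.962). B2m serves MHC class I molecules as well.

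Fcrla, the intracellular receptor-like protein of B lineage cells, had 65.1, 155 and 172 in wild-type 33D1 DCs and 805, 667 and 569.8 in wild-type DEC205 DCs. The groups did not overlap, and 2 of the 3 wild-type 33D1 values were under the table median of 156.3. The log2 difference was -2.07 ± 0.25 (adjusted p = 1.44e-06). Both of its other probe sets were called in the same direction (-2.77 ± 0.23 and -1.09 ± 0.30). The probe set at -2.77 had means of 75.4 in wild-type 33D1 and 805.7 in wild-type DEC205 DCs. The probe set at -1.09 had passed the filter through the 3 B cell arrays. Its means were 24.3 in wild-type 33D1 and 102.4 in wild-type DEC205 DCs. All wild-type DC arrays were under the table median on it, so its call rests on low signals. The summed signal of 9 B cell markers was 3387 to 4135 in wild-type DEC205 DCs and 10501 to 12337 in wild-type 33D1 DCs. In the latter, 4 of the 9 were called higher (Cd72, Cd22, Cd79b and Cr2) and 0 lower. Ms4a1, which encodes CD20, had the order of Fcrla, with means of 1327 in 33D1 and 2120 in DEC205 DCs (-0.66 ± 0.29, adjusted p = 0.121), and Cd79a, Ebf1, Blnk and Pax5 were not called. The part of B cells in the Fcrla difference was not tested.

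**Figure D2:**
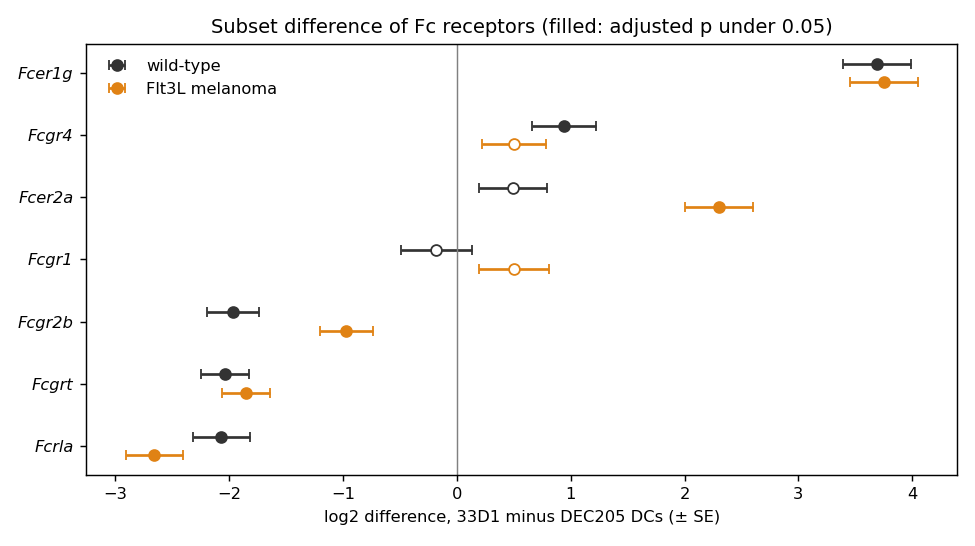
Difference of 33D1 minus DEC205 DCs on the log2(signal + 48.6) scale with its standard error for the 7 Fc receptor genes tested, in wild-type mice (dark) and in mice with Flt3L melanoma (orange); filled points have a limma adjusted p under 0.05. Fcer1g lies near 3.7 in both, Fcgr2b, Fcgrt and Fcrla lie below 0 in both, and Fcer2a is at 0.49 in wild-type mice and at 2.30 after Flt3L melanoma.

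The same subsets from mice with Flt3L melanoma gave 5 calls among the 7 genes, 2 higher in 33D1 DCs and 3 lower, where 23.5% of all genes were called. Fcer1g, Fcgr2b, Fcgrt and Fcrla were again called, with the same signs. Fcer2a, the IgE receptor CD23, was called here at least 3.69-fold higher in 33D1 DCs, and Fcgr4 was not called (0.50 ± 0.28, adjusted p = 0.228).

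The γ chain Fcer1g had 10413, 12270 and 10942 in 33D1 DCs of these mice and 730.2, 908 and 729.8 in their DEC205 DCs. No DEC205 array came near a 33D1 array, and the log2 difference was 3.75 ± 0.30 (adjusted p = 2.83e-09). Fcgr2b had 1258, 2977 and 2589.7 in 33D1 DCs and 3939, 4595 and 4169 in DEC205 DCs. No arrays overlapped, but 33D1 replicate 1 lay well under its group, and the difference was -0.97 ± 0.23 (adjusted p = 0.00346). Its second-brightest probe set gave -0.58 ± 0.29 here, which was not called (adjusted p = 0.174).

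Fcgrt had 1111, 1170.4 and 1883 in 33D1 DCs of the Flt3L mice and 5424, 5169 and 4426 in DEC205 DCs. The highest 33D1 value was that of replicate 3, the array with more Xcr1. The difference was -1.85 ± 0.21 (adjusted p = 5.79e-07), and -2.08 (adjusted p = 2.35e-07) without that array. Fcrla had 79.6, 44.5 and 119 against 596, 887 and 786, so that every 33D1 array was under the table median and every DEC205 array above it (difference -2.66 ± 0.25, adjusted p = 3.76e-08).

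Whether the subset difference itself changed with Flt3L melanoma was tested directly, as the difference of both contrasts. Of the 7 genes, 0 were called by limma, 2 had an unadjusted p under 0.05, and 0.105% of all genes were called. The 2 were Fcer2a (1.81 ± 0.42, adjusted p = 0.153) and Fcgr2b (1.01 ± 0.33, adjusted p = 0.545). Without 33D1 replicate 1 of the Flt3L mice Fcgr2b was called (1.38, adjusted p = 0.0382), and Fcer2a was called when the model held the 4 DC groups alone (adjusted p = 0.0431). For Fcer1g the estimate was 0.06 ± 0.43.

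Within the 33D1 subset, 2 Fc receptors rose with Flt3L melanoma, Fcer2a at least 3.69-fold and Fcgr2b 2.78-fold. They were 2 calls among 7 genes, both higher, where 1.01% of all genes were called and 0.851% were called higher. The remaining 5 were not called, with differences from -0.45 ± 0.25 (Fcrla) to 0.41 ± 0.21 (Fcgrt). In DEC205 DCs, 0 of the 7 were called with Flt3L melanoma and 0 had an unadjusted p under 0.05 in the same limma model, against 2.11% of all genes called.

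Fcer2a signals were 134, 135 and 182 in 33D1 DCs of wild-type mice and 502, 747 and 480 in those of Flt3L mice. The groups did not overlap, and 2 of the wild-type arrays were under the table median while all 3 Flt3L arrays were at about 3 times that level or more. The log2 difference was 1.64 ± 0.30 (adjusted p = 0.00563), and it was not called without Flt3L replicate 2 (1.45, adjusted p = 0.0652). A second probe set, with 12.5, 9.8 and 17.8 in wild-type and 112, 179.5 and 71.5 in Flt3L 33D1 DCs, was called too (1.40 ± 0.30, adjusted p = 0.0234). It had passed the filter through the 3 B cell arrays, and only 1 of its 33D1 arrays was above the table median. In DEC205 DCs the Fcer2a signals stayed under the table median in both conditions, at 72.2, 91.9 and 117 in wild-type and 92.8, 58.9 and 79.2 in Flt3L mice.

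Fcgr2b signals in 33D1 DCs went from 792, 888 and 779 in wild-type to 1258, 2977 and 2589.7 in Flt3L mice, again with no overlap. The log2 difference was 1.33 ± 0.23 (adjusted p = 0.00393). The subset difference in wild-type mice was called on all 4 probe sets, whereas that in Flt3L mice was not called on the second-brightest. This rise in 33D1 DCs rested on the probe set used as well. The next brightest gave 0.19 ± 0.29 (adjusted p = 0.901), and the other 2 gave 1.12 ± 0.40 (adjusted p = 0.252) and 0.80 ± 0.21 (adjusted p = 0.0871), so that 1 of the 4 was called. In DEC205 DCs, where Fcgr2b was higher at the outset, the difference was 0.33 ± 0.23 (adjusted p = 0.664), although the 3 Flt3L arrays lay above the 3 wild-type ones.

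**Figure D3:**
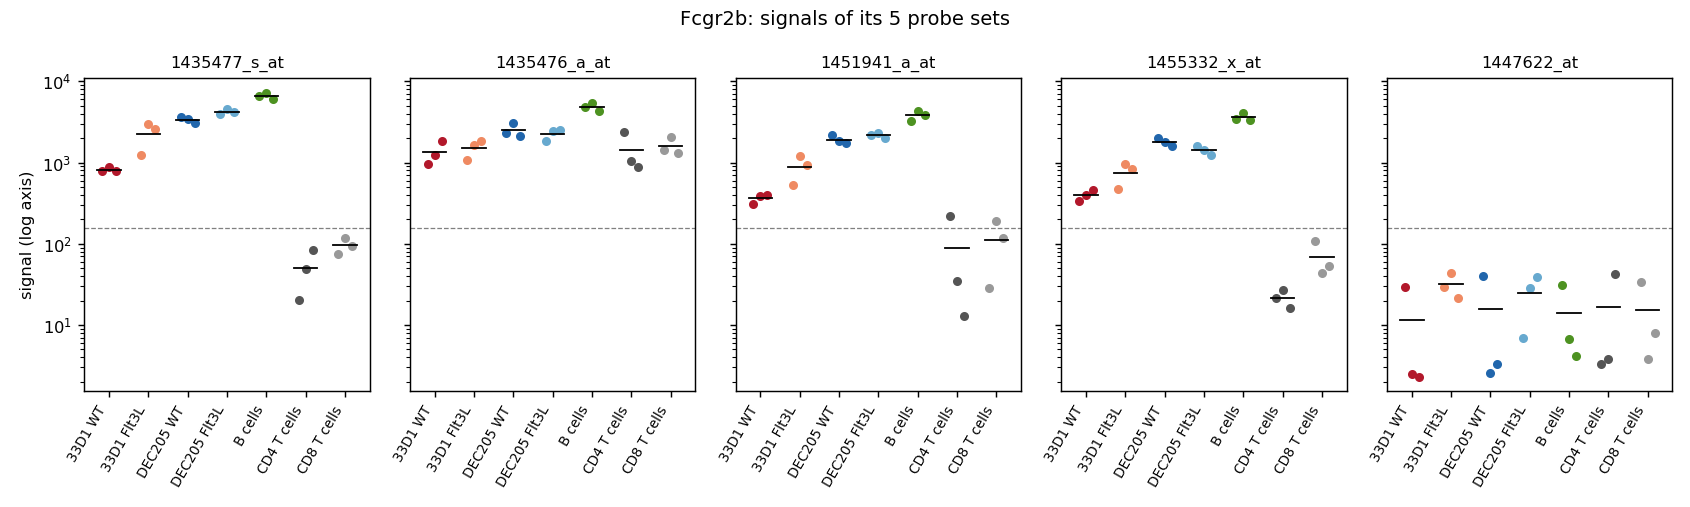
Signals of the 5 Fcgr2b probe sets on the 21 arrays, on a log axis, by group; points are arrays, bars are means of 3, the dashed line is the table median. In 3 probe sets T cells are far below DCs, whereas the second panel reads 882 to 2393 in T cells, and the last panel is under the table median on all arrays.

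Both genes are strongly expressed by B cells, so the B cell markers were read on the same arrays. The summed signal of 9 B cell markers was 10501 to 12337 in wild-type and 12274 to 14494 in Flt3L 33D1 DCs, against 138151 to 149507 in B cells. Between the 33D1 groups, 0 of the 9 were called by limma and 2 had an unadjusted p under 0.05, Cr2 (-0.84 ± 0.28) and Cd72 (0.77 ± 0.27). Cd79a, Ebf1 and Blnk lay near or under the table median in both groups, whereas Cd22, Cd72, Cd79b and Ms4a1 had means from 745 to 6395 in them. Cd79a, a chain of the B cell receptor complex, had 22.3, 77.5 and 109.9 in Flt3L and 56.9, 35.5 and 162 in wild-type 33D1 DCs. The B cell transcription factor Ebf1 had 5.2, 32.6 and 5.7 in Flt3L and 10.9, 8.9 and 19.4 in wild-type 33D1 DCs. Ms4a1 had a mean of 929 in Flt3L and 1327 in wild-type 33D1 DCs, the opposite order to Fcer2a. Of 7 plasmacytoid DC markers, 1, Bst2, was called higher with Flt3L melanoma (adjusted p = 0.0478), and the summed signal of the list was 6136 to 7716 against 4344 to 5282. Bst2 was not called without Flt3L 33D1 replicate 3 (0.90, adjusted p = 0.185) or without wild-type DEC205 replicate 3 (0.96, adjusted p = 0.0554).

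Markers of the DC subsets were read on these arrays too. The 8 CD8-negative DC markers summed to 34858 to 38640 in Flt3L and 48114 to 50241 in wild-type 33D1 DCs. Esam, an adhesion molecule of CD8-negative DCs, was the 1 of them called, and it was lower in Flt3L mice, with means of 716 against 2460 (-1.72 ± 0.20, adjusted p = 9.15e-05). The 9 CD8-positive DC markers summed to 4968, 5725 and 9331 in Flt3L and 5166 to 5945 in wild-type 33D1 DCs, against 93038 to 105027 in wild-type DEC205 DCs, and 0 of the 9 were called by limma, with 2 at an unadjusted p under 0.05. These were Naaa, with 1099, 1571 and 2124 in Flt3L against a mean of 926 (0.71 ± 0.19, adjusted p = 0.0868), and Irf8, with 341, 371 and 2407 against a mean of 319 (1.05 ± 0.42, adjusted p = 0.338). The highest values were those of replicate 3, the array with more Xcr1. Without it Fcer2a (1.74, adjusted p = 0.0166) and Fcgr2b (1.20, adjusted p = 0.0368) were still called. The part of plasmacytoid or CD8-positive DCs in the rise of either gene was otherwise not tested.

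**Figure D4:**
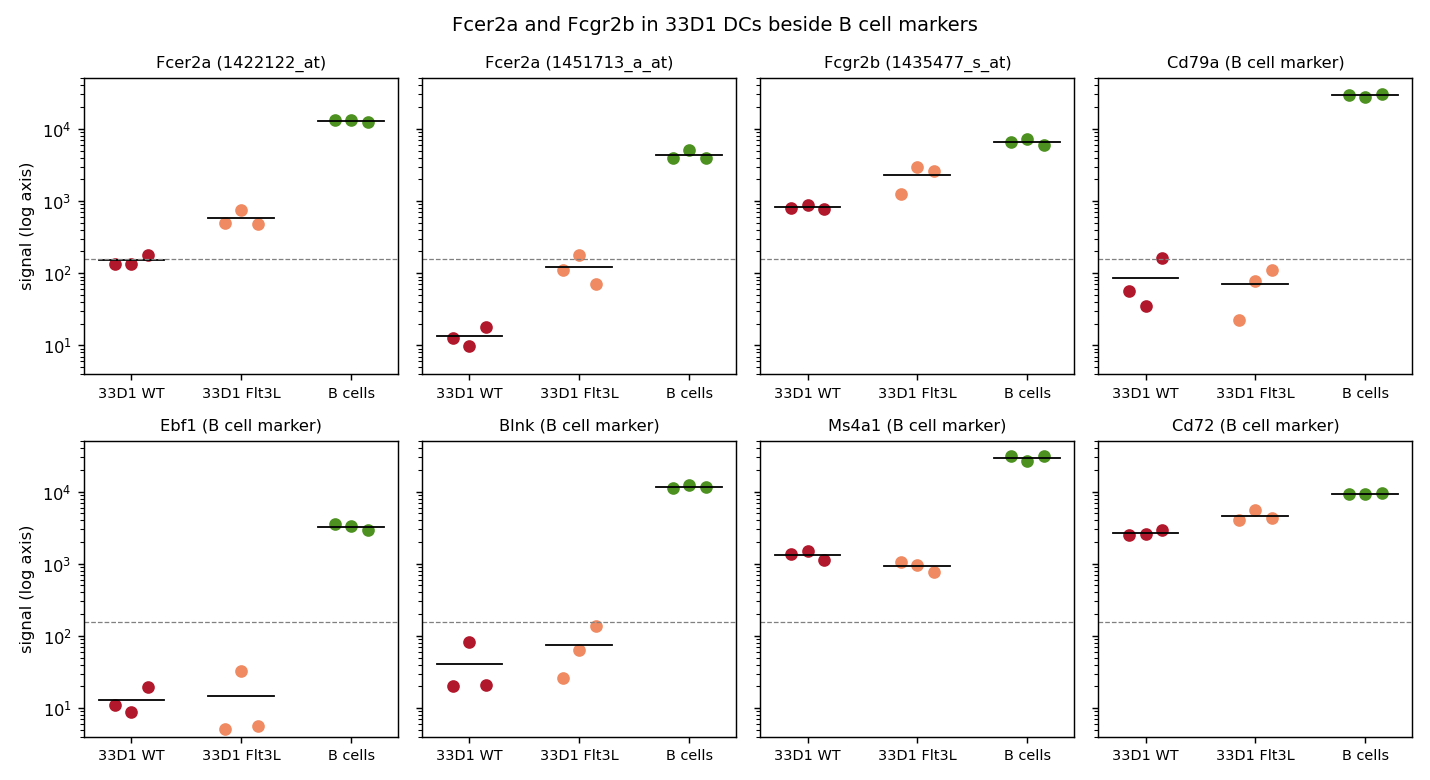
Signals of both Fcer2a probe sets, Fcgr2b and 5 B cell markers on the 3 arrays each of wild-type 33D1 DCs, Flt3L 33D1 DCs and B cells, on a log axis with means of 3 as bars and the table median dashed. Fcer2a and Fcgr2b are higher in the Flt3L than in the wild-type 33D1 arrays, whereas Cd79a, Ebf1 and Blnk lie at or below about the table median in both 33D1 groups.

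Among lymphocytes, B cells carried 3 of the receptors at high signal. Fcer2a was at least 83.4-fold, Fcrla at least 47.6-fold and Fcgr2b, on its tested probe set, at least 42.3-fold higher in B cells than over both T cell groups. Of the 7 genes 4 were called, all higher in B cells than the mean of both T cell groups, where 26.9% of all genes were called and 13.1% were called higher. Fcer2a and Fcrla passed the filter in the groups where they are high, so their calls here follow in part from how they entered.

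The Fcer2a signals of B cells were 13363, 13216 and 12516, and T cells had 43.0 to 222. The log2 difference was 6.31 ± 0.26 (adjusted p = 9.73e-15). Fcrla had 7374.5, 7065 and 7889.7 in B cells and 63.4 to 138 in T cells (5.61 ± 0.22, adjusted p = 4.27e-15). Fcgr2b, the brake on B cell receptor signalling by immune complexes, had 6562, 7266 and 6015 in B cells. In T cells its tested probe set read 20.2, 48.4 and 82.9 (CD4) and 75.2, 118 and 94.5 (CD8), all under the table median (5.83 ± 0.20, adjusted p = 5.69e-16). The second-brightest Fcgr2b probe set had means of 4852 in B cells, 1442 in CD4 and 1597 in CD8 T cells. Over 20 settings the smallest Fcgr2b difference of B minus T cells was 1.72, still called. The γ chain Fcer1g was low in all lymphocytes, at 65.9, 129 and 291 in B cells and 109 to 229.7 in T cells, with overlapping arrays. The fourth call was Fcgrt (0.56 ± 0.18, adjusted p = 0.0258), whose B and T cell arrays overlapped. B cells (906.5) were called higher than CD4 T cells (296) but lay below CD8 T cells (1221), a difference that was not called (-0.38 ± 0.21, adjusted p = 0.227). The call against both was lost without B cell replicate 2 (0.46), CD4 replicate 3 (0.48) or CD8 replicate 1 (0.44).

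Against B cells, the wild-type DC subsets differed in which receptors they had more of. Of 7 genes, 5 were called in 33D1 DCs minus B cells (2 higher, 3 lower, with 34% of all genes called), and 5 in DEC205 DCs minus B cells (2 higher, 3 lower, with 39% called). These contrasts share the B cell arrays. Fcer1g was 73-fold higher in 33D1 DCs (5.96 ± 0.30) and 5.73-fold higher in DEC205 DCs (2.27 ± 0.30). These ratios are over a B cell mean of 161.8, with only 1 of the 3 B cell arrays above the table median. Fcgrt was 4.75-fold higher in DEC205 DCs than in B cells (2.19 ± 0.21, adjusted p = 1.78e-08), while in 33D1 DCs its difference from B cells was 0.14 ± 0.21 (adjusted p = 0.674). Fcgr4 was called higher in 33D1 DCs (2.86-fold, adjusted p = 0.000463). In B cells, Fcer2a was at least 83.4-fold, Fcrla at least 47.6-fold and Fcgr2b 8.07-fold higher than in 33D1 DCs. Against DEC205 DCs, B cells had at least 83.4-fold more Fcer2a, 10.9-fold more Fcrla and 1.96-fold more Fcgr2b signal.

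Against T cells, taken as the mean of both T cell groups, Fcer1g and Fcgr2b were higher in both DC subsets. Of the 7 genes, 4 were called higher and 0 lower in 33D1 DCs (44.3% of all genes were called either way and 19.5% higher), and 4 higher and 0 lower in DEC205 DCs (49.2% either way and 21.7% higher). In 33D1 DCs the 4 were Fcer1g (65-fold, over a T cell mean of 181.7), Fcgr2b (at least 5.24-fold), Fcgr4 (2.15-fold) and Fcgrt (1.32-fold, with overlapping arrays). The Fcgrt call is against the mean of T cell groups that differ from each other, since wild-type 33D1 DCs (1004) were called higher than CD4 T cells (296) but lay below CD8 T cells (1221), a difference that was not called (-0.23 ± 0.21, adjusted p = 0.415). In DEC205 DCs the 4 were Fcgr2b (at least 21.5-fold), Fcrla (at least 4.36-fold), Fcgrt (5.68-fold) and Fcer1g (5.1-fold), and Fcgrt was called higher against each T cell group. On the second-brightest Fcgr2b probe set, T cells read 882 to 2393, and its difference between 33D1 DCs and T cells was -0.14 ± 0.25 (adjusted p = 0.700), against 2.89 ± 0.20 on the tested one. For wild-type DEC205 DCs minus T cells the smallest Fcgr2b difference over 20 settings was 0.76, still called, against 4.86 ± 0.20 on the tested probe set. The Fcgr2b ratios above therefore hold for the tested probe set only.

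Between the T cell groups, Fcgrt was the receptor called, of 7 tested, where 3.26% of all genes were called and 1.63% were called higher in CD8 T cells. It had 851, 1259 and 1554 in CD8 T cells and 402, 262 and 225 in CD4 T cells. The groups did not overlap, and the CD8 mean was 4.12-fold the CD4 mean (1.87 ± 0.21, adjusted p = 3.96e-06). CD8 T cell values reached those of 33D1 DCs and B cells. The CD8-positive DC markers summed to more in CD8 than in CD4 T cells, 7202 to 8546 against 1749 to 2640, of which Itgae, an integrin chain also made by CD8 T cells, had a mean of 5162 against 294. The markers Xcr1 and Batf3 had 178 and 26.7 in CD8 T cells and 168 and 40.6 in CD4 T cells, near or under the table median in both. Without CD4 replicate 1, or without CD8 replicate 3, Fcgr4 was called higher in CD8 T cells too (1.17 and 1.05).

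In order of mean signal over the 7 groups, Fcgr2b on its tested probe set ran from B cells (6614) through DEC205 DCs of Flt3L (4234) and wild-type mice (3366) and 33D1 DCs of Flt3L (2275) and wild-type mice (819.7) to CD8 (95.8) and CD4 T cells (50.5). Its neighbours differed at each step (adjusted p of 0.0469 or less) except between the DEC205 groups (adjusted p = 0.664) and between the T cell groups (adjusted p = 0.253). For Fcer1g the steps called were from the 33D1 groups (11820 and 11210) to the DEC205 groups (927 and 789) and from these to the lymphocytes (162 to 188). For Fcgrt they were from the DEC205 groups (5006 and 4310) to the 33D1 groups, CD8 T cells and B cells (1388 to 906.5), whose neighbours were not called apart, and from B cells to CD4 T cells (296). For Fcrla they were from B cells (7443) to the DEC205 groups (756 and 681) and from these to the rest (81.1 to 131). Fcer2a stepped from B cells (13030) to Flt3L 33D1 DCs (576.5) and from there to the 5 others (77.0 to 155).

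The genes that carry Fc receptor signals were read from lists drawn from general knowledge of the pathway. Of 23 activating signalling genes 21 were tested, and between the wild-type subsets 8 were higher in 33D1 DCs, 3 lower and 10 not called, where 23.1% of all genes were called, with a median difference of 0.20 against 0.04 over all genes. The highest was Fgr, a Src-family kinase, with means of 4415 and 865 (2.30 ± 0.16, adjusted p = 2.67e-10). Syk, the kinase that binds the phosphorylated γ chain, had 3828 and 1663 (1.18 ± 0.18, adjusted p = 2.33e-05). The adaptor Lcp2 (1.12 ± 0.14) and the lipid kinase subunit Pik3cd (1.01 ± 0.13) were higher as well, while the exchange factor Vav3 was lower (-1.09 ± 0.17). In Flt3L mice 7 were higher, 2 lower and 12 not called, where 23.5% of all genes were called, again with a median of 0.20 against 0.04, and Syk had 3675 and 1622 (1.15 ± 0.18).

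The inhibitory list was split. All 11 genes were tested, 3 were higher in wild-type 33D1 DCs, 3 lower and 5 not called (23.1% of all genes were called), with a median of 0.04, equal to that of all genes. Inpp5d, which encodes SHIP-1, the phosphatase that Fcgr2b recruits, had means of 4496 in 33D1 and 7519 in DEC205 DCs (-0.74 ± 0.13, adjusted p = 9.51e-05), the direction of Fcgr2b itself. Ptpn6, which encodes the phosphatase SHP-1, went the other way, with 12200 and 3191 (1.92 ± 0.14, adjusted p = 5.65e-10), as did the Csk-binding adaptor Pag1 (1.71 ± 0.18). In Flt3L mice the counts were 3 higher, 2 lower and 6 not called (23.5% of all genes were called), with a median of 0.16 against 0.04, and Inpp5d had 4250 and 7066 (-0.72 ± 0.13, adjusted p = 0.000125).

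With Flt3L melanoma, 0 of the 21 activating and 0 of the 11 inhibitory genes were called by limma in 33D1 DCs, where 1.01% of all genes were called, and 3 genes of each list had an unadjusted p under 0.05. In DEC205 DCs the kinase Fgr fell, from a mean of 865 to 309.9 signal units (-1.34 ± 0.16, adjusted p = 4.33e-05), and it was the 1 call in both lists, where 2.11% of all genes were called. Fgr is itself higher in 33D1 DCs, and without wild-type DEC205 replicate 3, the array with more Cd4 signal, its difference was -1.19 (adjusted p = 0.000475). In the same contrast 4 of 8 CD8-negative DC markers were called lower (Ltb -2.50, Sirpa -1.55, Cd4 -1.50 and Esam -0.84), and the list summed to 6637 to 8368 in Flt3L and 8113 to 10581 in wild-type DEC205 DCs. Most of these sums was Notch2, with means of 6720 and 6333, which was not called (0.08 ± 0.14, adjusted p = 0.914). Of 9 macrophage and monocyte markers tested 3 were called lower (Hmox1 -1.56, Vcam1 -1.21 and Csf1r -0.96), and the 13 with a probe set summed to 12708 to 13279 against 13532 to 18389. Without that array Ltb (-2.28, adjusted p = 1.4e-05) and Cd4 (-0.93, adjusted p = 0.0142) were still called, whereas Sirpa (adjusted p = 0.104), Esam (0.0995), Hmox1 (0.137), Vcam1 (0.125) and Csf1r (0.225) were not. The part of such cells in the Fgr difference was not tested beyond leaving out that array.

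**Figure D5:**
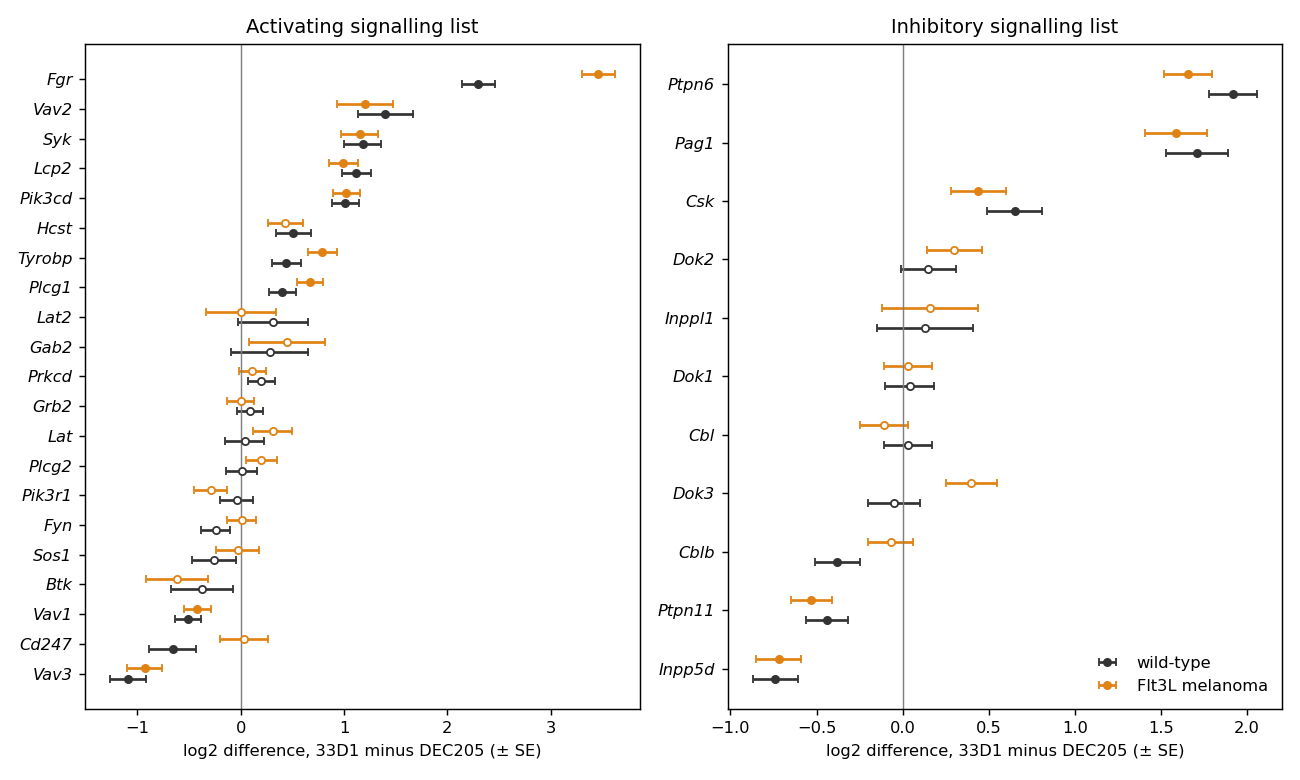
Difference of 33D1 minus DEC205 DCs with its standard error for the 21 tested genes of the activating list (left) and the 11 of the inhibitory list (right), for wild-type mice (dark) and Flt3L mice (orange); filled points have a limma adjusted p under 0.05. Fgr lies at 2.30 and 3.46 and Syk near 1.2 in both, whereas Ptpn6 lies above 0 and Inpp5d below 0 in both.

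Of 13 other Fc and Fc-like receptors, 9 had a probe set of 1 symbol and 6 were tested. Fcrl1, an Fc receptor-like protein of B cells, was higher in 33D1 than in DEC205 DCs, with 2691, 2828 and 2486 against 929, 907 and 967 in wild-type mice (1.47 ± 0.25, adjusted p = 0.000109). It was the one called of the 6, where 23.1% of all genes were called, in the direction opposite to Fcrla, and B cells had a mean of 9625. The IgM receptor Fcmr stayed near 100 in all DC groups (means from 98.2 to 107.6) against 22680 in B cells. Among 9 complement and other opsonin receptors tested, 3 were higher in wild-type 33D1 DCs, 1 lower and 5 not called (against the same 23.1%), with a median of 0.37 against 0.04 over all genes. Itgam, the α chain of complement receptor 3, which binds C3b fragments on coated particles, had 1377 against 105 (3.22 ± 0.26, adjusted p = 3.88e-09).

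On chromosome 1, the genes between the receptors were not called between the wild-type subsets where tested. Sdhc, a subunit of succinate dehydrogenase, stood between Fcgr3 and Fcer1g at -0.19 ± 0.12 (adjusted p = 0.286). Tomm40l, near Fcer1g, was at 0.27 ± 0.12 (adjusted p = 0.119) in wild-type mice and was called at 0.37 ± 0.12 (adjusted p = 0.0282) in Flt3L mice. Fcgr2b and Fcgr4, which are direct neighbours, were at -1.97 and 0.94.

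Across the 21 arrays, the genes most like each receptor were found by Pearson correlation of the log2 values, as a description over 7 groups of 3 arrays that share cell type, so that a gene high in the same groups is like it. For Fcer1g they were Haus8 (0.991), Cyp4f16 (0.988) and Ms4a6c (0.982). For Fcgr2b they were Slc9a7 (0.969), Prr5 (0.968) and Arhgap17 (0.964), and for Fcgrt they were the costimulator Cd86 (0.932), Rps27l (0.923) and Pgam1 (0.921). Fcer2a was most like Nxpe2 (0.974), the BAFF receptor Tnfrsf13c (0.965) and Mgst1 (0.949). Fcrla was most like Lmbrd1 (0.972), Snx2 and Syvn1 (both 0.956), and Fcgr4 was most like Tmem231 (0.931), Sfxn2 (0.881) and Frmd5 (0.847). Fcgr1, with its narrow range, had Plxna3 (0.884), Efs (0.883) and 1700028I16Rik (0.861). Among the receptors themselves the values ran from -0.433 for Fcer1g with Fcrla to 0.726 for Fcer1g with Fcgr4.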

How the data were processed

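RNA of sorted spleen cells was measured on 21 Affymetrix arrays. Biotinylated cRNA was made from 5 ug of total RNA, per the labels' protocols. The deposited table holds linear probe set intensity values. Per the submitters' processing notes GCOS and MAS5 produced them, in versions not given in the sources used here. Each array had a 2% trimmed mean of 500, and array medians lay between 121.9 and 204.4. The number of arrays, 3 a group, limits the precision.

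Probe sets with 1 symbol in the platform annotation numbered 34945, those with several 932 and those with none 9160, besides 64 controls. A table of RefSeq genes held the Entrez identifiers of 34754, and 0 symbols changed. Probe sets above 156.3, the table median, on at least 3 arrays were kept (23946 named), and each gene was read on its kept probe set of highest mean, which left 13284 genes. Levels of different genes were not compared, but marker lists were summed over their probe sets. The probe sets of a gene were ranked by mean, and those of Fcgr2b were set side by side. Values were log2(signal + 48.6), where 48.6 is the 25th percentile of the table, a scale that understates changes of low genes. Group means were fitted with limma 3.58.1 in R 4.3.3 (lmFit, eBayes with a trend on intensity, 14 residual df). All tests were two-sided, with Benjamini-Hochberg adjustment over all genes of a contrast. The procedure was tested on simulated data. Errors beside differences are standard errors.

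Named were all 8 receptors, up to 4 genes a contrast of each pathway list, the 3 genes most like each receptor, and called markers. A few further marker, list and neighbouring genes were chosen after their values were seen, as were the examples of markers that were not called. Members and lists were chosen with earlier results of these data known. Alternatives were other offsets, filters, normalizations, probe sets and models, a replicate block, and leaving out arrays.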

Additional observations from a re-analysis of the deposited data

How the results depend on the processing

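The 77 receptor results (7 genes in 11 contrasts) kept their direction, where called, and their side of the threshold with an offset of 16, no filter, quantile normalization, median centring, the mean of a gene's probe sets, no intensity trend and the replicate block. With array weights 75 did, with only the groups of the contrast in the model 74, with the second-highest probe set 74, and without both arrays that stood apart 76. Of 567 leave-one-out results 556 did, 7 calls were lost and 4 gained. Only Fcgr2b, Fcer2a and Fcrla had more than 1 kept probe set. Fcgr1, Fcgr4, Fcer1g and Fcgrt were read on the same probe set in the second-highest and mean settings. Those settings therefore do not test the results of these genes. The count of receptors called in the difference of the subset contrasts was 0, and it was 1 with array weights (Fcer2a, adjusted p = 0.00796) and 1 with only the contrast's groups (Fcer2a), with a leave-one-out range of 0 to 1. For Flt3L melanoma in 33D1 DCs the count was 2, fell to 1 with the second-highest probe set (Fcgr2b 0.19, adjusted p = 0.913) and ranged from 1 to 2 leaving out single arrays. For CD8 minus CD4 T cells it was 1, with a range of 1 to 2. With the second-highest probe set, Fcgr2b in 33D1 DCs minus T cells turned to -0.14 (adjusted p = 0.704). The higher Fcgrt of B cells over T cells was lost with only the contrast's groups (0.56, adjusted p = 0.0727). The causes were not tested. Deviations of same-numbered arrays from their group means correlated between -0.378 and 0.355 and were over 0.1 in 6, 4 and 3 of 21 pairs for the 3 numbers, so the numbers do not pair the samples. The replicate block left 2 receptors called for Flt3L melanoma in 33D1 DCs (Fcgr2b 1.33, adjusted p = 0.00182) and changed no call. The values used here carry no detection call, so how far low signals, such as those of Fcgr3, lie above background is unknown.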
